A study of Mus musculus with 21 samples.

Results

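The translation initiation factors are the proteins that bring the ribosome, the initiator tRNA and the mRNA together at the start codon. Their genes were taken here as every probe whose annotated gene symbol begins with Eif and a digit, a rule that used no measured value and returned 96 probes of 51 genes, among 45281 probes and 19057 annotated genes on the array. Of these, 75 probes of 42 genes passed a filter on low signals (a detection p-value under 0.05 on at least 3 arrays) and were tested among 11442 genes. The remaining 9 genes, Eif1ax, Eif2ak4, Eif2s3x-ps1, Eif2s3y, Eif3e, Eif3m, Eif4e1b, Eif4g3 and Eif5a2, had no probe that passed it, and Eif2s3y is a gene of the Y chromosome while all mice were female. Some subunits, among them Eif1, Eif2s1, Eif3g and Eif4g1, were not analysed here.

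Livers came from 3-month-old female CD-1 mice, an outbred strain, with 3 mice and 3 arrays in each of 7 groups. Control mice were untreated and taken at time 0. PH mice had 70% of the liver removed by partial hepatectomy, and TCP mice received by gavage 3 mg/kg of TCPOBOP in dimethyl sulphoxide and corn oil, a ligand of the nuclear receptor CAR that makes the liver grow without tissue loss. Both were studied after 1, 3 and 6 h, the hours in which hepatocytes leave quiescence, and no sham-operated, vehicle-treated or time-matched control was among the arrays, so surgery, vehicle and hour of the day cannot be told apart from PH and TCP.

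Initiation begins when eIF2, loaded with GTP and the initiator tRNA, joins the small ribosomal subunit with eIF1, eIF1A, eIF3 and eIF5, while the cap-binding complex eIF4F (eIF4E, the helicase eIF4A and the scaffold eIF4G) prepares the mRNA. Both steps are checked by signalling, since kinases phosphorylate the alpha subunit of eIF2 and thereby block its recycling by the exchange factor eIF2B, and 4E-binding proteins hold eIF4E until mTORC1 phosphorylates them. The liver is a major site of protein synthesis, and growth of hepatocytes before division draws on this machinery.

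The number of probes detected per array lay between 15982 and 17973, and the correlation between any 2 arrays over the tested genes was 0.9228 or more. All 10 hepatocyte markers, such as Alb and Hnf4a, were detected on all 21 arrays, with summed signals that overlapped those of the controls in every group (157000 to 211000 in the controls, 201000 to 211000 at PH 6 h, 178000 to 187000 at TCP 6 h). Of these 10, 1 was called higher at PH 1 h and at PH 3 h (Tat), 2 at PH 6 h (Tat and Fgb) and 0 at any time after TCP. Summed signals of 6 neutrophil markers were 152 to 190 in the controls, 326 to 2170 at PH 1 h, 1210 to 2520 at PH 3 h, 568 to 928 at PH 6 h and 237 to 270 at TCP 6 h, and 3 of 6 (Retnlg, S100a8 and S100a9) were called higher at PH 3 h and at PH 6 h and 0 at TCP 6 h, while 3 of 6 were detected on no control array. Of 6 endothelial markers, with summed signals of 865 to 1000 in the controls and 1060 to 1700 at PH 6 h, 3 were called higher at PH 6 h, and of 2 tested biliary markers 1, Sox9, at PH 3 h. Summed signals of 4 red blood cell markers were 23900 to 42200 in the controls, 7790 to 11500 at TCP 3 h, 11600 to 29900 at PH 6 h and 11100 to 21400 at TCP 6 h, and 3 of 4 were called lower at TCP 3 h (Alas2, Hba-a1 and Slc4a1), 1 at PH 3 h, 1 at PH 6 h and 0 at TCP 6 h. Those of 6 macrophage markers were 1320 to 1680 in the controls, 699 to 942 at TCP 1 h and 1680 to 3520 at TCP 6 h, where 1 of 6 (Lyz2) was called higher, and the part of these markers in the results was not tested. In whole liver, a change in the share of a cell type and a change of RNA per cell cannot be told apart. The arrays lay on 4 beadchips. Chip 1 held control replicate 1, TCP 3 h replicate 1 and all of TCP 6 h, chip 2 held TCP 1 h replicates 1 and 2 and TCP 3 h replicates 2 and 3, chip 3 held control replicate 2, all of PH 1 h and PH 3 h replicates 1 and 2, and chip 4 held control replicate 3, PH 3 h replicate 3, all of PH 6 h and TCP 1 h replicate 3.

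Transcripts of initiation factors rose mainly 6 h after PH, when 11 of the 42 tested members were higher and 2 lower than in control liver. Here and below, rose and fell are used of called genes, those that differed by 1.5-fold or more with an adjusted p under 0.05 over all 11442 genes (limma, 1 model of 7 groups, Benjamini-Hochberg). At this time point 20.8% of all tested genes were called, 8.85% of them higher and 11.9% lower as shares of all genes, against 31% of the members, 26.2% higher and 4.76% lower. The 3 PH 6 h arrays did not overlap the 3 controls for 24 of the 42 members (57.1%, against 37.9% of all genes). The median log2 change at PH 6 h was 0.25 over the members and -0.08 over all genes, and 32 of 42 members lay above 0. Without the filter on low signals, over all 51 members, that median was 0.10. With arrays scaled to a common median in place of quantile normalisation, the median of all genes moved to between -0.24 and -0.11 in the 6 comparisons with control, that of the members at PH 6 h was 0.04 against -0.23 for all genes, and the split of calls was 5 higher and 3 lower. Median scaling thus called 8 of 42 members and 2500 of 11442 genes at PH 6 h. Quantile normalisation called 13 and 2379, so the larger share among the members depended on the scaling.

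Fewer members were called in the other groups. At PH 3 h 3 members rose and 1 fell (9.52% of members called against 7.43% of all genes, 3.92% of them higher and 3.5% lower), with a median of 0.08 for the members and -0.05 for all genes, which was -0.17 and -0.24 under median scaling with 1 call each way. Median scaling called 831 of all 11442 genes at PH 3 h. At PH 1 h no member was called (0.402% of all genes), with 2 members (4.76%) and 10.7% of all genes at an unadjusted p under 0.05. After TCP no member was called at 1 h (0.184% of all genes), with 1 member (2.38%) and 8.04% of all genes at an unadjusted p under 0.05. At TCP 3 h 1 member rose (1.22% of all genes called, 0.507% higher and 0.717% lower), and at TCP 6 h 4 rose (9.52% of members called against 5.31% of all genes, 2.63% higher and 2.68% lower). The medians of the members after TCP were 0.09, 0.12 and 0.17 at the 3 time points, beside -0.01, -0.02 and -0.02 for all genes, and under median scaling they were -0.11, -0.10 and 0.02 beside -0.17, -0.17 and -0.14, with 0 calls of members at 3 h and 1 fall as the only call of a member at 6 h. Under that scaling 113 of all genes were called at TCP 3 h and 418 at TCP 6 h.

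**Figure D1:**
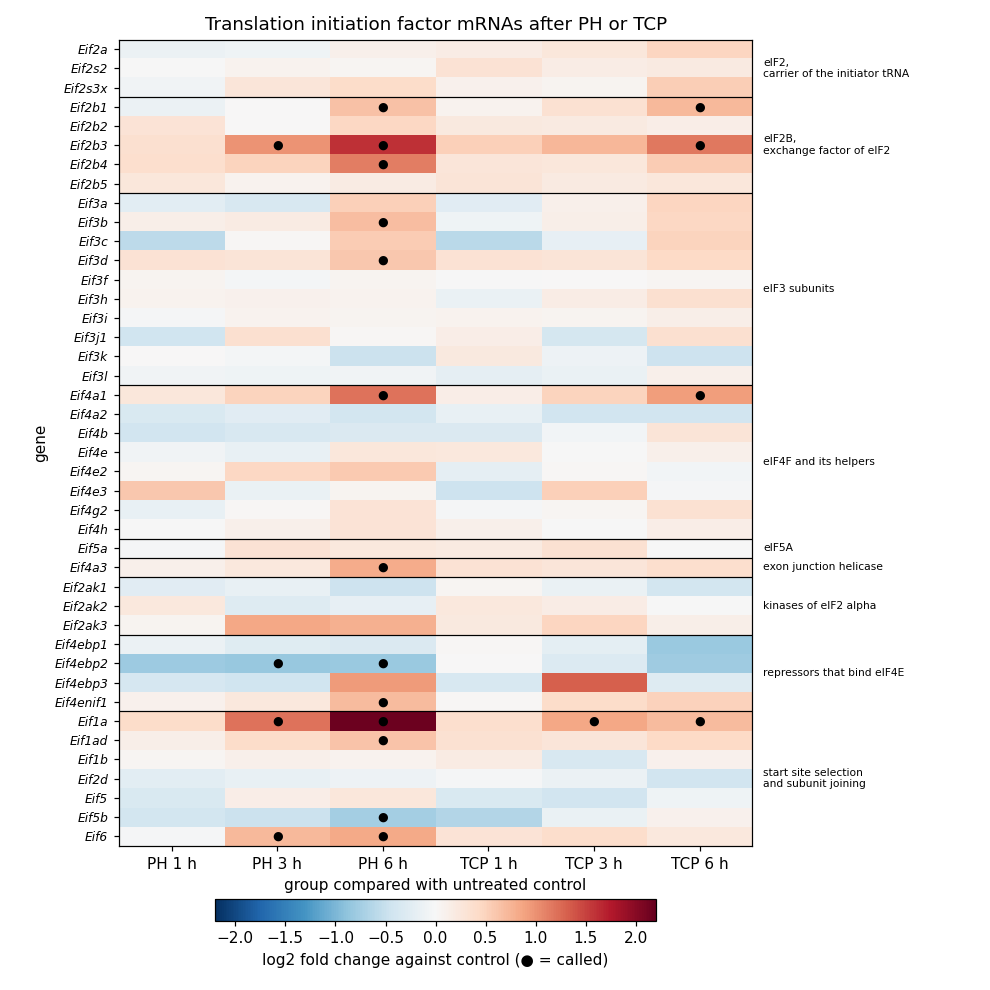
Log2 fold changes of the 42 tested initiation factor genes (rows, grouped by role) against untreated control for PH and TCP at each time point (columns, 3 mice each), with filled dots where a gene was called. The column PH 6 h holds 13 dots, TCP 6 h 4, PH 3 h 4, TCP 3 h 1 and both 1 h columns none.

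Eif1a, which encodes eIF1A, a small factor that helps the ribosome scan to the start codon, had the largest change of the tested members at PH 6 h. Its log2 signals were 9.72, 9.60 and 9.88 in the controls (replicates 1 to 3, as for every gene below) and 10.07, 10.12 and 10.21 at PH 1 h, 11.07, 10.56 and 11.13 at PH 3 h, then 11.93, 11.79 and 11.95 at PH 6 h. After TCP they were 9.97, 10.13 and 10.21 at TCP 1 h, 10.69, 10.79 and 10.26 at TCP 3 h, and 10.16, 10.45 and 10.67 at TCP 6 h. Every PH array lay above every control array, the 3 arrays of PH 6 h lay above all other arrays, and the 9 TCP arrays lay above the controls but below the PH 6 h arrays. The log2 fold change was 1.19 (limma adjusted p = 0.000591, SE 0.18) at PH 3 h and 2.15 (limma adjusted p = 4.47e-06, SE 0.18) at PH 6 h, a 4.45-fold rise, and both calls stood in all 6 fits that left out 1 array. At TCP 3 h it was 0.85 (limma adjusted p = 0.0289, SE 0.18) and at TCP 6 h 0.69 (limma adjusted p = 0.0339, SE 0.18). The TCP 3 h call was lost without replicate 1 or 2 of the controls or replicate 1 or 2 of TCP 3 h (changes of 0.74 to 0.84, limma adjusted p = 0.0967 to 0.154), and the TCP 6 h call without replicate 1, 2 or 3 of the controls or replicate 2 or 3 of TCP 6 h (changes of 0.57 to 0.77, limma adjusted p = 0.0535 to 0.153). At PH 1 h and TCP 1 h the changes were 0.40 and 0.37 and were not called. A single probe measured Eif1a, and whether it tells Eif1a from its X-linked relative Eif1ax, which encodes the same factor and whose own probe was detected on 0 of 21 arrays, was not tested.

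Eif6, which encodes a factor that keeps the large ribosomal subunit from joining the small one too early and is also needed to make that subunit, rose after PH from 3 h on. Its signals were 10.21, 10.19 and 10.17 in the controls and 10.13, 10.28 and 10.06 at PH 1 h, 10.73, 10.68 and 11.29 at PH 3 h, then 11.13, 11.11 and 10.84 at PH 6 h. The control arrays spanned a narrow range that PH 1 h overlapped, and all 6 arrays of PH 3 and 6 h lay above both. The change was 0.71 (limma adjusted p = 0.0139, SE 0.17) at PH 3 h and 0.83 (limma adjusted p = 0.00169, SE 0.17) at PH 6 h, and the later call stood in all 6 fits that left out 1 array while the earlier was lost without replicate 1 or 2 of the controls or replicate 3 of PH 3 h (changes of 0.51 to 0.72, limma adjusted p = 0.0501 to 0.109). After TCP the signals were 10.68, 10.37 and 10.43 at TCP 1 h, 10.65, 10.70 and 10.37 at TCP 3 h, and 10.39, 10.44 and 10.44 at TCP 6 h, all above the controls, with changes of 0.30, 0.39 and 0.23, none of them called.

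Eif1ad, whose product contains the domain of eIF1A, had signals of 9.36, 9.25 and 9.40 in the controls and 9.46, 9.41 and 9.54 at PH 1 h, 9.76, 9.65 and 9.81 at PH 3 h, then 10.04, 9.70 and 10.14 at PH 6 h. All PH arrays lay above the controls, and the PH 6 h arrays overlapped those of PH 3 h. The change at PH 6 h was 0.62 (limma adjusted p = 0.00988, SE 0.16), and its size dropped under 1.5-fold without replicate 2 of the controls or replicate 1 or 3 of PH 6 h (changes of 0.54 to 0.58, limma adjusted p = 0.0395 to 0.0441). After TCP its signals were 9.68, 9.87 and 9.46 at TCP 1 h, 9.53, 9.69 and 9.58 at TCP 3 h, and 9.74, 9.52 and 10.06 at TCP 6 h, with a change of 0.43 at 6 h that was not called. Eif5b, which encodes the GTPase that joins the ribosomal subunits, was dim and fell, with signals of 6.01, 6.78 and 6.36 in the controls and 5.85, 5.79 and 6.31 at PH 1 h, 5.88, 5.59 and 6.24 at PH 3 h, then 5.38, 5.88 and 5.64 at PH 6 h. The PH 6 h arrays lay just below the lowest control, and the change was -0.74 (limma adjusted p = 0.0328, SE 0.24), lost without replicate 2 or 3 of the controls or replicate 1 or 3 of PH 6 h (changes of -0.76 to -0.55, limma adjusted p = 0.0644 to 0.171) and -0.40 and -0.48 at the earlier times. After TCP the signals of Eif5b were 5.92, 5.83 and 5.49 at TCP 1 h, 6.48, 5.80 and 6.42 at TCP 3 h, and 6.20, 6.57 and 6.67 at TCP 6 h, overlapping the controls at 3 and 6 h. The other 3 tested genes of start site selection and subunit joining, Eif1b, Eif2d and Eif5, were not called in any comparison with control.

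The exchange factor eIF2B has 5 subunits, encoded by Eif2b1 to Eif2b5, all of which were measured, and 3 of them rose at PH 6 h and 2 at TCP 6 h. Eif2b3, which encodes the gamma subunit, had signals of 7.60, 7.88 and 8.12 in the controls and 7.94, 8.07 and 8.66 at PH 1 h, 9.28, 8.18 and 9.08 at PH 3 h, then 9.81, 8.86 and 9.76 at PH 6 h. After TCP they were 8.39, 8.47 and 8.30 at TCP 1 h, 8.57, 8.86 and 8.38 at TCP 3 h, and 8.69, 9.05 and 9.36 at TCP 6 h. At 6 h all arrays of both treatments lay above the highest control, which PH 3 h replicate 2 barely exceeded. The change was 0.98 (limma adjusted p = 0.0454, SE 0.29) at PH 3 h, 1.61 (limma adjusted p = 0.00074, SE 0.29) at PH 6 h (3.06-fold) and 1.17 (limma adjusted p = 0.0252, SE 0.29) at TCP 6 h. The PH 6 h call stood in all 6 fits that left out 1 array, the PH 3 h call was lost without replicate 1, 2 or 3 of the controls or replicate 1 or 3 of PH 3 h (changes of 0.77 to 1.11, limma adjusted p = 0.0643 to 0.21), and the TCP 6 h call was lost without replicate 1 or 2 of the controls or replicate 2 or 3 of TCP 6 h (changes of 1.00 to 1.17, limma adjusted p = 0.0797 to 0.123).

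Eif2b4 encodes the delta subunit, which together with the alpha and beta subunits senses phosphorylated eIF2. Its signals were 9.998, 10.31 and 10.18 in the controls, 10.45, 10.32 and 10.85 at PH 1 h, 10.79, 10.39 and 10.78 at PH 3 h, then 11.34, 10.89 and 11.66 at PH 6 h, and 10.50, 10.40 and 10.40 at TCP 1 h, 10.57, 10.35 and 10.32 at TCP 3 h, and 10.49, 10.76 and 10.92 at TCP 6 h. Each PH array was above the controls, and replicate 2 was the lowest of the 3 arrays at PH 6 h. The rise at PH 6 h was 1.13 (limma adjusted p = 0.000566, SE 0.20), kept in all 6 fits that left out 1 array, and the change at TCP 6 h, 0.56 (limma adjusted p = 0.106, SE 0.20), was not called. Eif2b1, the gene of the alpha subunit, had signals of 8.74, 8.67 and 8.54 in the controls, 8.57, 8.16 and 8.83 at PH 1 h, 8.78, 8.58 and 8.62 at PH 3 h, then 9.34, 9.10 and 9.47 at PH 6 h, and 8.71, 8.52 and 8.96 at TCP 1 h, 9.22, 8.95 and 8.79 at TCP 3 h, and 9.11, 9.61 and 9.39 at TCP 6 h. Here the arrays of the 6 h groups lay above all controls and overlapped each other. Its rise was 0.65 (limma adjusted p = 0.0193, SE 0.19) at PH 6 h and 0.72 (limma adjusted p = 0.0352, SE 0.19) at TCP 6 h. These calls were lost without replicate 2 or 3 of the controls or replicate 1 or 3 of PH 6 h (changes of 0.56 to 0.66, limma adjusted p = 0.051 to 0.0681) for PH and without replicate 1, 2 or 3 of the controls or replicate 2 or 3 of TCP 6 h (changes of 0.60 to 0.76, limma adjusted p = 0.0769 to 0.15) for TCP. Eif2b2 (beta subunit) had a change at PH 6 h of 0.46 (limma adjusted p = 0.0302, SE 0.15), under 1.5-fold, and Eif2b5, which encodes the catalytic epsilon subunit, of 0.18 (limma adjusted p = 0.474, SE 0.17).

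eIF2 itself was measured through Eif2s2 (beta subunit) and Eif2s3x (gamma subunit), and with them Eif2a, the gene of the separate factor eIF2A, which can also carry the initiator tRNA. None was called in any comparison. At PH 6 h their changes ranged from 0.05 to 0.40, and at TCP 6 h from 0.20 to 0.54. Of the kinases that phosphorylate eIF2 alpha, Eif2ak3 encodes PERK, the sensor of the endoplasmic reticulum. Its signals were 5.33, 5.59 and 5.92 in the controls, 5.41, 5.90 and 5.72 at PH 1 h, 5.75, 6.62 and 7.04 at PH 3 h, then 6.64, 5.90 and 6.63 at PH 6 h, and 6.05, 5.47 and 5.97 at TCP 1 h, 6.58, 5.85 and 5.82 at TCP 3 h, and 5.54, 5.80 and 5.90 at TCP 6 h. The PH groups overlapped the controls at every time point. The changes were 0.86 (limma adjusted p = 0.0923, SE 0.30) at PH 3 h and 0.78 (limma adjusted p = 0.0689, SE 0.30) at PH 6 h and were not called, but would have been without PH 3 h replicate 1 (1.22, limma adjusted p = 0.0217) and without PH 6 h replicate 2 (1.02, limma adjusted p = 0.025). Eif2ak1, the gene of the heme-regulated kinase, had a change at PH 6 h of -0.45 (limma adjusted p = 0.0429, SE 0.15), which is under 1.5-fold, and Eif2ak2, which encodes PKR, of -0.17 (limma adjusted p = 0.633, SE 0.23).

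Within eIF4F and its helpers, Eif4a1, the gene of the main RNA helicase, was the only 1 of 8 tested genes to be called on its brightest probe. Its signals were 12.54, 12.61 and 12.55 in the controls and 12.85, 12.64 and 12.97 at PH 1 h, 13.23, 12.66 and 13.26 at PH 3 h, then 14.05, 13.51 and 13.74 at PH 6 h. After TCP they were 12.58, 12.71 and 12.87 at TCP 1 h, 13.27, 12.94 and 12.95 at TCP 3 h, and 13.33, 13.40 and 13.72 at TCP 6 h. All arrays of PH 6 h and TCP 6 h exceeded all controls, and the arrays of both treatments overlapped. The rise was 1.20 (limma adjusted p = 0.000271, SE 0.19) at PH 6 h, in all 6 fits that left out 1 array, and 0.92 (limma adjusted p = 0.00863, SE 0.19) at TCP 6 h, lost without replicate 3 of TCP 6 h (0.80, limma adjusted p = 0.0621). At PH 3 h it was 0.48 and not called, but 0.68 (limma adjusted p = 0.0258) without PH 3 h replicate 2, whose signal was the closest to the controls. Eif4a2, which encodes the second eIF4A helicase, was at -0.41 (limma adjusted p = 0.128, SE 0.19) at PH 6 h and -0.41 (limma adjusted p = 0.223, SE 0.19) at TCP 6 h and was not called, but was at -0.59 (limma adjusted p = 0.0356) and called at PH 6 h without PH 6 h replicate 2.

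Eif4e, which encodes the cap-binding protein itself, was dim, with signals of 5.66, 5.59 and 5.80 in the controls, 5.26, 5.82 and 5.76 at PH 1 h, 5.32, 5.69 and 5.54 at PH 3 h, then 6.26, 6.08 and 5.48 at PH 6 h, and 5.79, 6.37 and 5.61 at TCP 1 h, 5.36, 6.24 and 5.41 at TCP 3 h, and 4.80, 6.38 and 6.19 at TCP 6 h. These groups overlapped throughout, and the change was 0.26 (limma adjusted p = 0.636, SE 0.34) at PH 6 h and 0.10 (limma adjusted p = 0.913, SE 0.34) at TCP 6 h. Its relatives Eif4e2 and Eif4e3, the helper Eif4b, the partner Eif4h and the scaffold relative Eif4g2 were not called in any comparison with control on their brightest probes. Another probe of Eif4b fell and another of Eif4e2 rose at PH 6 h, as given below.

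Sequence upstream of the genes was examined for 4 short motifs in windows of 300 bases, 250 before and 50 after each annotated start (RefSeq, build GRCm38.p6), which were found for 39 of the 51 members. The E-box CACGTG, read on both strands, occurred in at least 1 window of 9 of these 39 genes (23.1%, against 8.09% of 27025 genes), and the ETS motif CCGGAAG, on both strands, in 15 (38.5%, against 9.93%). The cAMP response element TGACGTCA and the C/EBP-ATF composite TGATGNAAT, on both strands, occurred in none of the 39 (2.03% and 1.08% of all genes). Among the 13 members called at PH 6 h 10 had a window, of which Eif4a1 held the E-box and Eif1ad, Eif2b4, Eif3d, Eif4ebp2 and Eif4enif1 the ETS motif. A match of letters is a description and not a binding site. For the 2 of these genes whose motif lies before the start and outside any annotated gene, the 250 bases upstream are given 5′ to 3′ on the strand of the gene (both on the minus strand), with the motif in capitals. The E-box of Eif4a1 begins 189 bases before its start (chr11:69672424-69672673), and the ETS motif of Eif3d, here as its reverse complement, 70 bases before its start (chr15:77970825-77971074).
Eif4a1: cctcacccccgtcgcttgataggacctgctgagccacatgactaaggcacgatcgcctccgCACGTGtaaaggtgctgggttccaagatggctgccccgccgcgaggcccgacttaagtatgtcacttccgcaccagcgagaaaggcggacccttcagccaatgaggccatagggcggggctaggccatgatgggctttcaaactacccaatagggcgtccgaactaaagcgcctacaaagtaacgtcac
Eif3d: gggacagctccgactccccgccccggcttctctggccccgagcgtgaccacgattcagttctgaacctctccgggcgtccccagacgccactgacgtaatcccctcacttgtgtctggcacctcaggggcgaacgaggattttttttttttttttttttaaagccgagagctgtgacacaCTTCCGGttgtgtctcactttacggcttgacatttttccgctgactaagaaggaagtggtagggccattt

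Of the 4 tested repressors of eIF4E, 1 fell and 1 rose at PH 6 h. Eif4ebp2, the gene of a 4E-binding protein, fell, with signals of 10.19, 9.80 and 10.21 in the controls and 9.48, 9.49 and 8.85 at PH 1 h, 9.18, 8.72 and 9.79 at PH 3 h, then 9.23, 9.32 and 9.19 at PH 6 h. All PH arrays lay below the lowest control, PH 3 h replicate 3 by the least. After TCP they were 10.05, 9.95 and 10.24 at TCP 1 h, 9.46, 9.79 and 10.05 at TCP 3 h, and 9.42, 9.19 and 9.26 at TCP 6 h, below all controls at 6 h. The change was -0.79 (limma adjusted p = 0.155, SE 0.24) at PH 1 h and not called, -0.84 (limma adjusted p = 0.0362, SE 0.24) at PH 3 h, -0.82 (limma adjusted p = 0.0171, SE 0.24) at PH 6 h and -0.77 (limma adjusted p = 0.0604, SE 0.24), not called, at TCP 6 h, where 5 of the other ways of processing called it (-0.94 to -0.59, limma adjusted p = 0.0238 to 0.045). The PH 3 h call was lost without replicate 1 or 3 of the controls or replicate 1 or 2 of PH 3 h (changes of -0.81 to -0.58, limma adjusted p = 0.108 to 0.133), and the PH 6 h call without replicate 1 or 3 of the controls (changes of -0.76 to -0.75, limma adjusted p = 0.0614 to 0.0659). Eif4ebp1, the gene of the founding member of this protein family, had signals of 10.58, 10.72 and 10.92 in the controls, 10.80, 10.55 and 10.50 at PH 1 h, 10.44, 10.83 and 10.13 at PH 3 h, then 9.86, 10.59 and 10.79 at PH 6 h, and 10.93, 10.59 and 10.75 at TCP 1 h, 10.43, 10.99 and 10.16 at TCP 3 h, and 10.19, 9.40 and 10.18 at TCP 6 h. Its 3 arrays at TCP 6 h were below the controls, while the PH arrays overlapped them, and it was not called at TCP 6 h, -0.81 (limma adjusted p = 0.0799, SE 0.27), or at PH 6 h, -0.32 (limma adjusted p = 0.421, SE 0.27). Eif4ebp3 was uneven between mice of a group, at 7.50, 6.90 and 9.09 at PH 6 h and 7.50, 9.59 and 7.52 at TCP 3 h, and was not called.

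Eif4enif1, which encodes the transporter 4E-T that binds eIF4E and carries it to the nucleus, rose instead. Its signals were 8.52, 8.57 and 8.49 in the controls, 8.62, 8.48 and 8.75 at PH 1 h, 8.95, 8.33 and 8.99 at PH 3 h, then 9.31, 9.09 and 9.24 at PH 6 h, and 8.65, 8.54 and 8.45 at TCP 1 h, 8.76, 8.90 and 9.12 at TCP 3 h, and 9.04, 8.96 and 9.10 at TCP 6 h. At 6 h after either treatment all 3 arrays lay above the highest control. The rise at PH 6 h was 0.69 (limma adjusted p = 0.00654, SE 0.17), present in all 6 fits that left out 1 array, and the change at TCP 6 h, 0.51 (limma adjusted p = 0.0807, SE 0.17), was not called. Its second probe changed by 0.90 at PH 6 h and 0.69 at TCP 6 h and was called in both.

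**Figure D2:**
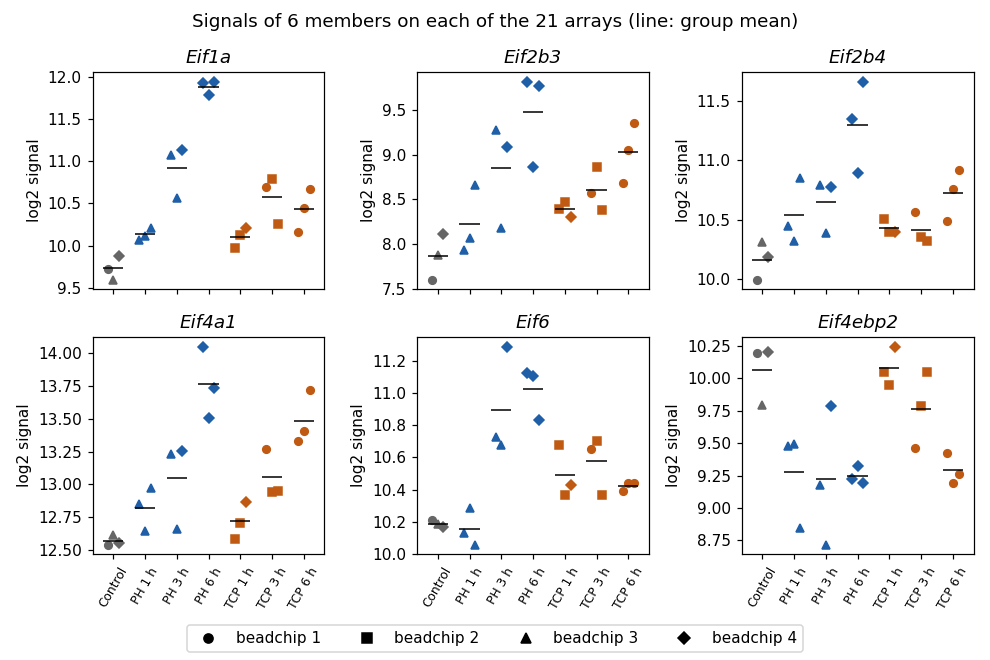
Log2 signals (vertical axes, each with its own range) of Eif1a, Eif2b3, Eif2b4, Eif4a1, Eif6 and Eif4ebp2 on the 21 arrays in 7 groups (horizontal axis), with marker shapes for the 4 beadchips and lines for group means. Eif1a at PH 6 h, at 11.79 to 11.95, stands above all other arrays, whereas Eif4ebp2 after PH lies below its controls.

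Of the 10 tested subunits of eIF3, the complex that holds the small ribosomal subunit ready for the mRNA, 2 rose at PH 6 h, when 20.8% of all genes were called and 8.85% were higher, and none was called at any other time against control. Eif3b, the gene of a core scaffold subunit, had signals of 8.49, 8.59 and 8.61 in the controls, 8.46, 8.43 and 9.19 at PH 1 h, 8.84, 8.54 and 8.86 at PH 3 h, then 9.30, 9.05 and 9.38 at PH 6 h, and 8.51, 8.42 and 8.49 at TCP 1 h, 9.15, 8.63 and 8.28 at TCP 3 h, and 8.56, 9.19 and 9.31 at TCP 6 h. Those of Eif3d, which encodes a subunit able to bind the mRNA cap, were 11.89, 11.77 and 11.82 in the controls, 12.16, 12.04 and 12.21 at PH 1 h, 12.18, 12.15 and 12.01 at PH 3 h, then 12.23, 12.20 and 12.84 at PH 6 h, and 12.36, 12.29 and 11.81 at TCP 1 h, 12.27, 12.12 and 11.96 at TCP 3 h, and 12.23, 12.29 and 12.28 at TCP 6 h. The PH 6 h arrays lay above the controls for both genes, for Eif3d with replicate 3 well above the other 2. Their changes at PH 6 h were 0.68 (limma adjusted p = 0.0437, SE 0.24) and 0.59 (limma adjusted p = 0.021, SE 0.18). The call of Eif3b was lost without replicate 1, 2 or 3 of the controls or replicate 1 or 3 of PH 6 h (changes of 0.61 to 0.71, limma adjusted p = 0.0807 to 0.12) and with the replicate number as a block (0.68, limma adjusted p = 0.0507), and that of Eif3d without replicate 2 or 3 of the controls or replicate 3 of PH 6 h (changes of 0.39 to 0.59, limma adjusted p = 0.0534 to 0.115).

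Eif3a, the gene of the largest subunit, had signals of 9.19, 9.39 and 9.41 in the controls, 9.20, 8.96 and 9.14 at PH 1 h, 8.96, 9.13 and 8.85 at PH 3 h, then 9.77, 9.98 and 9.83 at PH 6 h, and 9.19, 8.68 and 9.39 at TCP 1 h, 9.88, 8.77 and 9.69 at TCP 3 h, and 9.73, 9.80 and 9.86 at TCP 6 h. It was lower than control on all 3 arrays at PH 3 h and higher on all 3 at PH 6 h, with changes of -0.35 (limma adjusted p = 0.42, SE 0.23) and 0.53 (limma adjusted p = 0.105, SE 0.23) that were not called. The other 7 subunits, Eif3c, Eif3f, Eif3h, Eif3i, Eif3j1, Eif3k and Eif3l, had changes at PH 6 h of -0.48 (Eif3k) to 0.57 (Eif3c).

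Eif4a3, a relative of the eIF4A helicases whose product sits in the exon junction complex rather than in eIF4F, had signals of 9.27, 9.61 and 9.50 in the controls, 9.54, 9.51 and 9.69 at PH 1 h, 9.80, 9.74 and 9.53 at PH 3 h, then 10.20, 10.04 and 10.59 at PH 6 h, and 9.89, 9.63 and 9.80 at TCP 1 h, 9.90, 9.70 and 9.58 at TCP 3 h, and 9.86, 9.83 and 9.79 at TCP 6 h. The PH 6 h arrays exceeded all others. The rise at PH 6 h was 0.82 (limma adjusted p = 0.00147, SE 0.16) and stood in all 6 fits that left out 1 array, while at TCP 6 h the change was 0.36 (limma adjusted p = 0.203, SE 0.16) and not called. Eif5a, the gene of the factor that carries hypusine and helps the ribosome over difficult stretches, had signals of 10.67, 10.81 and 10.93 in the controls, 10.64, 10.71 and 10.97 at PH 1 h, 11.23, 10.998 and 11.15 at PH 3 h, then 11.01, 10.93 and 11.15 at PH 6 h, and 10.99, 11.20 and 10.80 at TCP 1 h, 11.05, 11.38 and 11.02 at TCP 3 h, and 10.84, 10.80 and 10.74 at TCP 6 h. Its PH 3 h arrays were above the controls, by 0.32 (limma adjusted p = 0.236, SE 0.15), and at PH 6 h the groups overlapped, with a change of 0.22 (limma adjusted p = 0.326, SE 0.15), neither called. The TCP 3 h arrays also lay above the controls, with a change of 0.34 that was not called. These values are of its brightest probe, and its probes differed by up to 1.04 in their changes at PH 3 h.

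How far the beadchip enters these results was examined because all arrays of PH 6 h lay on chip 4 and all of TCP 6 h on chip 1, each with 1 control. In a model that held the beadchip as a block, 8 of the 13 calls at PH 6 h were kept (limma adjusted p = 0.000531 to 0.0339) and Eif2b2 was called in addition, at 0.59 (limma adjusted p = 0.0379), so that 8 members were higher and 1 lower. The changes of the 8 kept calls were then 2.02 for Eif1a, 1.42 for Eif2b3, 1.11 for Eif2b4, 0.75 for Eif3d, 1.14 for Eif4a1, 0.88 for Eif4a3, -1.17 for Eif4ebp2 and 0.73 for Eif6. The calls of Eif1ad, Eif2b1, Eif3b, Eif4enif1 and Eif5b were lost, at 0.61, 0.71, 0.71, 0.60 and -0.78 (limma adjusted p = 0.0538 to 0.123). At PH 3 h the block kept Eif1a, at 1.25 (limma adjusted p = 0.00301), and Eif6, at 0.81 (limma adjusted p = 0.0212), and lost Eif2b3, at 0.96 (limma adjusted p = 0.125), and Eif4ebp2, at -0.72 (limma adjusted p = 0.0752). No TCP call was kept, with Eif1a at 0.89 (limma adjusted p = 0.196) at 3 h and, at 6 h, Eif1a at 0.67, Eif2b1 at 0.66, Eif2b3 at 1.30 and Eif4a1 at 0.90 (limma adjusted p = 0.127 to 0.26). The sizes of these changes thus stayed within 1.5 times those without the block. Calls fell over the whole array as well. Of all 11442 genes, 1122 were called with the block at PH 6 h and 535 at PH 3 h, beside 2379 and 850 without it. At TCP 3 h 5 genes and at TCP 6 h 43 genes were called with it, beside 140 and 608. Within chip 4, the 3 PH 6 h arrays against their single control gave 2.01 for Eif1a, 1.36 for Eif2b3, 1.21 for Eif4a1, 1.11 for Eif2b4, 0.85 for Eif6, -0.96 for Eif4ebp2 and 0.56 to 0.78 in size for the other 7, with the sign of the full comparison for all 13 and 0 genes called among all 11442. Within chip 1, the 3 TCP 6 h arrays against their control gave 0.70 for Eif1a, 1.43 for Eif2b3, 0.94 for Eif4a1 and 0.63 for Eif2b1, with 23 of all genes and no member called. At PH 3 h, Eif1a, Eif2b3, Eif6 and Eif4ebp2 gave 1.22, 0.85, 0.51 and -0.85 within chip 3 and 1.25, 0.96, 1.12 and -0.42 within chip 4, and at TCP 3 h Eif1a gave 0.97 within chip 1.

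**Figure D3:**
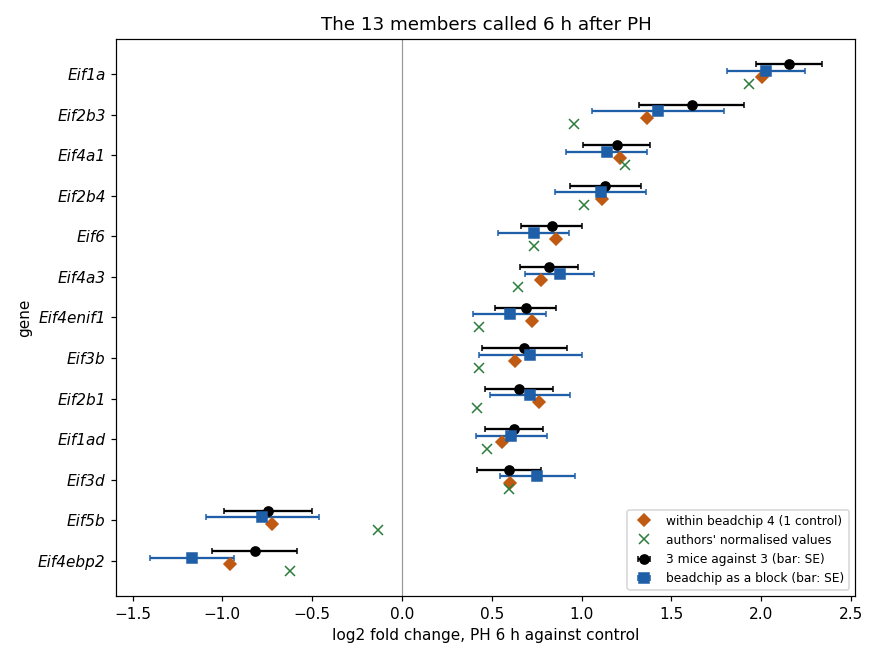
Log2 fold changes at PH 6 h (horizontal axis) of the 13 called members (vertical axis) from 3 mice against 3, with the beadchip as a block, within chip 4 against its 1 control, and on the normalised values of the authors, with bars for the SE where several controls were used. All 4 estimates share their sign for each gene, from 1.93 to 2.15 for Eif1a, and for Eif5b the authors' values give -0.14 against -0.72 to -0.78 for the others.

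Other ways of processing the arrays bore on the smaller changes. At PH 6 h the calls of Eif1a, Eif2b3, Eif2b4, Eif4a1, Eif6 and Eif4ebp2 stood without background correction, with a larger offset, with median scaling and on the authors' normalised values. Median scaling ended those of Eif1ad, Eif2b1, Eif3b, Eif3d, Eif4a3 and Eif4enif1 (changes of 0.36 to 0.56, limma adjusted p = 0.109 to 0.285). Without background correction Eif1ad, Eif2b1, Eif3b, Eif3d and Eif4enif1 were at 0.55 to 0.58, under 1.5-fold, and Eif5b at -0.31. On the authors' values Eif1ad, Eif2b1, Eif3b and Eif4enif1 were at 0.42 to 0.47 and Eif5b at -0.14. The call of Eif2b1 at PH 6 h also ended on the mean of its probes (0.49, limma adjusted p = 0.0775). At PH 3 h Eif2b3 was not called with median scaling, on the authors' values, without background correction or without the filter (changes of 0.54 to 0.98, limma adjusted p = 0.0555 to 0.13), nor Eif6 with median scaling (0.50). After TCP median scaling ended all 5 calls, at 0.63 for Eif1a at 3 h and, at 6 h, at 0.47 for Eif1a, 0.57 for Eif2b1, 1.02 for Eif2b3 and 0.59 for Eif4a1, and Eif4ebp2 then fell at TCP 6 h (-0.94, limma adjusted p = 0.0238). Eif4ebp2 was also called at TCP 6 h without background correction (-0.69, limma adjusted p = 0.0409), with an offset of 50 (-0.74, limma adjusted p = 0.0449), on the authors' values (-0.59, limma adjusted p = 0.0429) and with a mean-variance trend and robust prior (-0.77, limma adjusted p = 0.045). On the authors' values the TCP 6 h calls of Eif1a (0.57, limma adjusted p = 0.024) and Eif2b1 (0.47, limma adjusted p = 0.0167) ended because both were under 1.5-fold, and that of Eif2b1 also ended on the mean of its probes (0.63, limma adjusted p = 0.0627).

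The direct comparison of PH with TCP asked where the responses to tissue loss and to the mitogen differ. At 6 h 2 members were higher and 1 lower after PH (7.14% of members called against 10.3% of all genes, 4.79% higher and 5.53% lower). At 3 h none was called (4.36% of all genes), with 5 members (11.9%) and 18.5% of all genes at an unadjusted p under 0.05, and at 1 h none (0.271% of all genes), with 4 members (9.52%) and 9.26% of all genes. Eif1a was higher after PH by 1.46 (limma adjusted p = 5.65e-05, SE 0.18), in all 6 fits that left out 1 array and with no overlap between the 3 arrays of each group. Eif6 was higher by 0.60 (limma adjusted p = 0.026, SE 0.17) and Eif5b was lower, at -0.84 (limma adjusted p = 0.0304, SE 0.24), both without overlap. The call of Eif6 was lost without replicate 1 or 2 of PH 6 h or replicate 1, 2 or 3 of TCP 6 h (changes of 0.55 to 0.61, limma adjusted p = 0.0628 to 0.0919), and that of Eif5b without replicate 1 or 3 of PH 6 h or replicate 2 or 3 of TCP 6 h (changes of -0.85 to -0.72, limma adjusted p = 0.0612 to 0.123). On the authors' values Eif6 differed by 0.54 and Eif5b by -0.16, both under 1.5-fold, and with median scaling Eif6 by 0.59 (limma adjusted p = 0.058). No beadchip held arrays of both treatments at 6 h, so no value within a chip exists, and with the beadchip as a block the differences were 1.36 (limma adjusted p = 0.0914), 0.60 (limma adjusted p = 0.503) and -0.96 (limma adjusted p = 0.49) for Eif1a, Eif6 and Eif5b. That block left 26 of 11442 genes called, beside 1181 without it. Against the 3 controls that both treatments share, Eif2b1 was at 0.65 after PH and 0.72 after TCP, Eif2b3 at 1.61 and 1.17, Eif4a1 at 1.20 and 0.92 and Eif4ebp2 at -0.82 and -0.77. For these 4 genes the difference between treatments was -0.07 (limma adjusted p = 0.869, SE 0.19), 0.45 (limma adjusted p = 0.37, SE 0.29), 0.28 (limma adjusted p = 0.388, SE 0.19) and -0.05 (limma adjusted p = 0.935, SE 0.24), and none was called. Among the cell type markers, 2 of 6 neutrophil, 3 of 10 hepatocyte and 1 of 6 endothelial markers were higher and 1 of 6 macrophage markers lower in the PH 6 h group than in the TCP 6 h group, and their part in these differences was not tested. At 3 h Eif3j1 (0.89, limma adjusted p = 0.0256) and Eif5 (0.73, limma adjusted p = 0.011) were called without PH 3 h replicate 2, and Eif3a (-0.80, limma adjusted p = 0.0232) without TCP 3 h replicate 2, and at 6 h Eif2b4 was called higher after PH without PH 6 h replicate 2 (0.78, limma adjusted p = 0.0147).

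**Figure D4:**
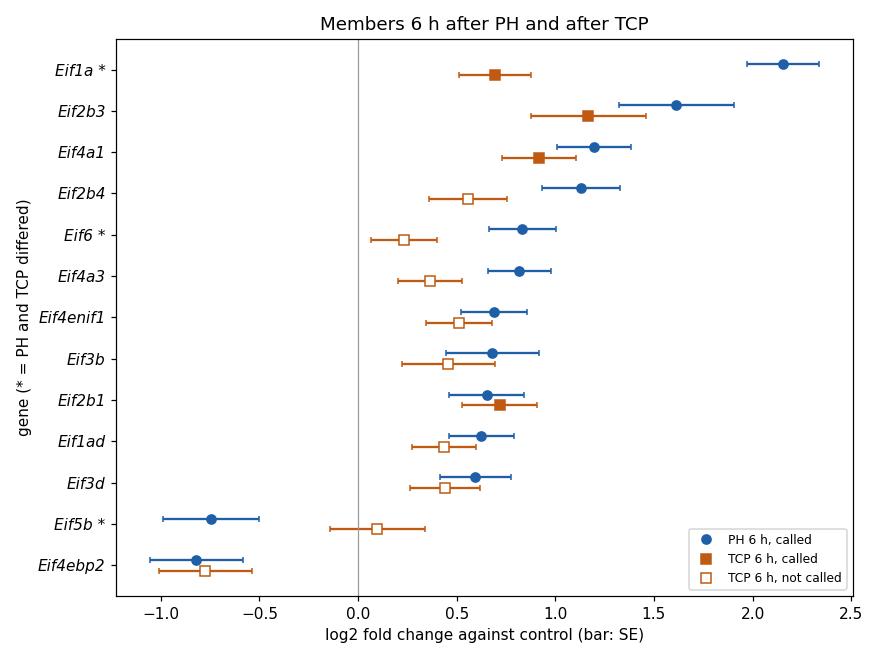
Log2 fold changes against control at 6 h (horizontal axis, bars for SE, 3 mice each) after PH (circles) and TCP (squares) for the 13 members called at 6 h in at least 1 comparison, with open markers where a gene was not called and asterisks where PH and TCP differed. The asterisks fall on Eif1a, Eif6 and Eif5b, while the bars of Eif2b1 and Eif4ebp2 overlap between treatments.

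The course after PH was followed by comparing successive time points. From 1 to 3 h 2 members rose (4.76% of members, against 1.69% of all genes called, 1.12% higher and 0.568% lower), Eif1a by 0.79 (limma adjusted p = 0.0379, SE 0.18) and Eif6 by 0.74 (limma adjusted p = 0.0357, SE 0.17). Both calls were lost without any single array of these groups other than PH 3 h replicate 2 (changes of 0.68 to 0.83 for Eif1a and 0.55 to 0.82 for Eif6, limma adjusted p = 0.0607 to 0.249). Without PH 3 h replicate 2, an array whose signals of Eif1a, Eif2b3 and Eif4a1 were the lowest of its group, Eif2b3 (0.96), Eif3j1 (0.94) and Eif5 (0.66) were called as well, 5 members in all. From 3 to 6 h 4 members rose (9.52% of members, against 4.73% of all genes called, 2.07% higher and 2.66% lower). Eif1a rose further by 0.97 (limma adjusted p = 0.00811, SE 0.18), in all 6 fits that left out 1 array, Eif3a by 0.88 (limma adjusted p = 0.0333, SE 0.23), Eif4a1 by 0.71 (limma adjusted p = 0.0357, SE 0.19) and Eif4a3 by 0.59 (limma adjusted p = 0.0417, SE 0.16). Eif3a moved from below to above its controls between these times, and its call was lost in each of the 6 fits that left out 1 array (changes of 0.81 to 0.95, limma adjusted p = 0.0517 to 0.0868) and on the mean of its 3 probes (0.37). That of Eif4a1 was lost without replicate 1 or 2 of PH 3 h or replicate 1 or 3 of PH 6 h (changes of 0.52 to 0.81, limma adjusted p = 0.0525 to 0.142), that of Eif4a3 without replicate 1, 2 or 3 of PH 3 h or replicate 1 or 3 of PH 6 h (changes of 0.43 to 0.65, limma adjusted p = 0.0702 to 0.158) and, with the replicate number as a block, at 0.59 (limma adjusted p = 0.0529). Without PH 6 h replicate 2, 7 members were called, Eif2b1 (0.75), Eif2b3 (0.94), Eif2b4 (0.85) and Eif4ebp3 (1.83) among them. With the beadchip as a block the 3 to 6 h changes were 0.78 (limma adjusted p = 0.143), 0.97 (limma adjusted p = 0.106), 0.63 (limma adjusted p = 0.232) and 0.74 (limma adjusted p = 0.112) for Eif1a, Eif3a, Eif4a1 and Eif4a3, and the 1 to 3 h changes 0.69 (limma adjusted p = 0.202) for Eif1a and 0.64 (limma adjusted p = 0.19) for Eif6, none of them called. The block left 8 of 11442 genes called from 1 to 3 h and 8 from 3 to 6 h, beside 193 and 541 without it. Within chip 4 the 3 to 6 h changes of these 4 genes were 0.76, 1.01, 0.51 and 0.75, and within chip 3 the 1 to 3 h changes of Eif1a and Eif6 were 0.68 and 0.55.

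Different probes of 1 gene were compared because the brightest stood for it. Of the 22 members with at least 2 tested probes, 16 had all probes on the same side of 0 at PH 6 h, with a median gap of 0.28 between the highest and lowest probe. Fewer genes had all probes on 1 side of 0 at PH 3 h (10 of 22, gap 0.18), TCP 3 h (13 of 22, gap 0.23) and TCP 6 h (13 of 22, gap 0.42). The gap was smaller than at PH 6 h at PH 3 h and TCP 3 h, and wider at TCP 6 h. Both probes of Eif4a1 rose, by 1.20 and 1.15, as did both of Eif6, by 0.83 and 1.27, and both of Eif4enif1. The second probe of Eif6 was dim, with a mean log2 signal of 5.34 and detection on 12 of 21 arrays. For Eif2b1 the second probe was at 0.32 and not called, and for Eif1ad the other 2 probes were at 0.88, called, and 0.82, not called. Probes of other members disagreed. For Eif4b the probe that stood for the gene was at -0.32 at PH 6 h while the other fell by 1.12. Their mean log2 signals were nearly equal, 6.57 and 6.55, so brightness hardly separates them. A dimmer probe of Eif4e2 rose by 0.73 at PH 6 h and was 0.94 higher than after TCP while the brightest was at 0.57, and the 4 probes of Eif4a2 lay between -0.62 and 0.51. The probes of Eif5a differed by up to 1.04 at PH 3 h and 1.03 between PH and TCP at 6 h, the largest gaps of any member there. Which transcripts the probes read was not tested.

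**Figure D5:**
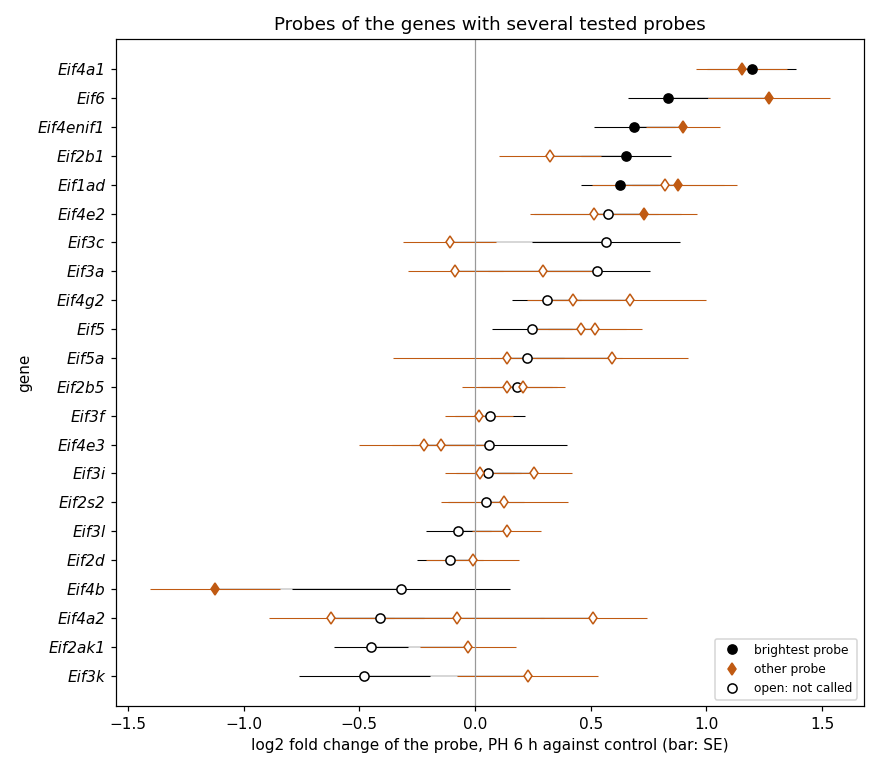
Log2 fold change of each tested probe at PH 6 h (horizontal axis, bars for SE) for the 22 members with at least 2 tested probes (vertical axis), circles for the brightest probe and diamonds for the others, filled where the probe was called. The probes of Eif4a1, at 1.15 and 1.20, lie close together, and those of Eif4a2 spread from -0.62 to 0.51.

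Genes around the initiation factors were described through 4 lists. Of 13 tested genes that control eIF2 alpha phosphorylation or are its known targets, 2 rose and 0 fell at PH 3 h, when 7.43% of all genes were called, 4 rose and 1 fell at PH 6 h, when 20.8% of all genes were called (median 0.38, against -0.08 for all genes), and 1 rose at TCP 6 h, when 5.31% were called (median 0.24, against -0.02). Ppp1r15a, which encodes GADD34, the phosphatase subunit that reverses the phosphorylation, rose by 2.31 (limma adjusted p = 0.00229, SE 0.42, and 2.39 with the beadchip block, called) at PH 3 h and 1.40 (limma adjusted p = 0.023, SE 0.42, and 1.30 with the beadchip block, not called) at PH 6 h, the latter lost without replicate 1 or 2 of the controls or replicate 2 of PH 6 h (changes of 0.83 to 1.35). Impact, the gene of an inhibitor of the kinase GCN2, rose by 1.08 (limma adjusted p = 0.00976, SE 0.24, and 1.16 with the beadchip block, called) at PH 3 h and 1.07 (limma adjusted p = 0.00375, SE 0.24, and 1.03 with the beadchip block, called) at PH 6 h, the former lost without PH 3 h replicate 1 or 3 (0.99 and 0.97). Trib3, a target of the transcription factor ATF4, fell at PH 6 h with a change of -1.84 (limma adjusted p = 0.0147, SE 0.52, and -1.53 with the beadchip block, not called), lost without replicate 1 or 2 of the controls or replicate 1 of PH 6 h (changes of -1.77 to -1.73). Chac1, another ATF4 target, was higher after PH than after TCP at 3 h by 2.93 (limma adjusted p = 0.0155, SE 0.67, and 3.36 with the beadchip block, not called), lost without TCP 3 h replicate 1 or 3 (2.25 and 2.79), and at 6 h by 2.86 (limma adjusted p = 0.00895, SE 0.67, and 2.55 with the beadchip block, not called). Against control Chac1 was not called at 3 or 6 h after either treatment. The highest change in this list at PH 6 h was 1.40, so the 6 h difference of Chac1 includes a value after TCP below the controls. Nck1, whose adaptor protein recruits phosphatase to eIF2, rose by 1.01 (limma adjusted p = 0.00345, SE 0.23, and 0.88 with the beadchip block, not called) at PH 6 h, kept in all 6 fits that left out 1 array. It was also the riser at TCP 6 h, by 0.84 (limma adjusted p = 0.0353, SE 0.23, and 0.80 with the beadchip block, not called), lost without replicate 1 or 2 of the controls or replicate 2 or 3 of TCP 6 h (changes of 0.64 to 0.88). Gcn1 was the remaining riser of this list at PH 6 h. Its call was lost without replicate 1, 2 or 3 of the controls or replicate 3 of PH 6 h (changes of 0.465 to 0.67).

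Among 16 tested elongation and release factors and their regulators, 3 rose and 1 fell at PH 6 h (4 of 16, against 20.8% of all genes called, with a median of 0.36 against -0.08) and 1 rose and 1 fell at TCP 6 h (median 0.29, against -0.02). Pelo, which encodes the rescue factor of stalled ribosomes, rose by 1.27 (limma adjusted p = 0.00012, SE 0.18, and 1.33 with the beadchip block, called) at PH 6 h and 1.21 (limma adjusted p = 0.000825, SE 0.18, and 1.03 with the beadchip block, not called) at TCP 6 h. Eef1e1, which encodes a small protein of the tRNA synthetase complex, rose by 0.76 (limma adjusted p = 0.0251, SE 0.24, and 0.72 with the beadchip block, not called) at PH 6 h, lost without replicate 1 or 2 of the controls or replicate 1 or 2 of PH 6 h (changes of 0.64 to 0.76). Eef2k, the gene of the kinase that inhibits elongation factor 2, fell with a change of -1.67 (limma adjusted p = 0.000173, SE 0.25, and -1.91 with the beadchip block, called) at PH 6 h, where it was detected on 1 of 3 arrays, of -0.86 (limma adjusted p = 0.0403, SE 0.25, and -0.95 with the beadchip block, not called) at PH 3 h and of -0.88 (limma adjusted p = 0.0445, SE 0.25, and -0.62 with the beadchip block, not called) at TCP 6 h. The PH 3 h call of Eef2k stood only without PH 3 h replicate 3 (changes of -0.94 to -0.66 in the other 5 fits that left out 1 array), and the TCP call was lost without replicate 1, 2 or 3 of the controls or replicate 2 or 3 of TCP 6 h (changes of -0.99 to -0.64). Of 17 tested partners of initiation at the poly(A) tail, cap and start codon, 4 rose and 2 fell at PH 6 h (6 of 17, against 20.8% of all genes, with a median of 0.23) and 1 rose at TCP 6 h (median 0.22). Bzw2, whose product competes with eIF5, rose at PH 6 h by 0.91 (limma adjusted p = 0.00184, SE 0.19, and 0.78 with the beadchip block, called), as did Ddx3x, a helicase gene, by 0.82 (limma adjusted p = 0.0125, SE 0.22, and 0.68 with the beadchip block, not called), lost without PH 6 h replicate 1 (0.71). Pdcd4, which encodes an inhibitor of eIF4A, fell with a change of -1.08 (limma adjusted p = 0.00666, SE 0.27, and -0.77 with the beadchip block, not called), as did Paip2b, the gene of an inhibitor of poly(A)-binding protein, with -0.67 (limma adjusted p = 0.0254, SE 0.21, and -0.71 with the beadchip block, not called), lost without replicate 1, 2 or 3 of the controls or replicate 1 of PH 6 h (changes of -0.69 to -0.39). Ncbp1, which encodes the nuclear cap-binding protein, rose by 0.72 (limma adjusted p = 0.0166, SE 0.21, and 0.73 with the beadchip block, not called) at PH 6 h, lost without replicate 2 of the controls or replicate 3 of PH 6 h (0.69 and 0.53). At TCP 6 h it was the riser, by 0.80 (limma adjusted p = 0.0303, SE 0.21, and 0.65 with the beadchip block, not called), lost without replicate 1, 2 or 3 of the controls or replicate 2 or 3 of TCP 6 h (changes of 0.71 to 0.83). Of 13 tested genes of mTORC1 and MNK signalling, 1 rose and 1 fell at PH 6 h (2 of 13, against 20.8% of all genes, with a median of 0.00) and none was called at TCP 6 h (median -0.19), with Ppp2r1a, a scaffold subunit of protein phosphatase 2A, at 0.77 (limma adjusted p = 0.00577, SE 0.18, and 0.76 with the beadchip block, called) and Rptor, the gene of the mTORC1 subunit raptor, at -0.77 (limma adjusted p = 0.00502, SE 0.18, and -0.60 with the beadchip block, not called). Ddit4, which encodes the mTORC1 inhibitor REDD1, rose by 3.17 (limma adjusted p = 0.0465, SE 0.95, and 2.71 with the beadchip block, not called) at PH 3 h and was higher after PH than after TCP at 6 h by 3.35 (limma adjusted p = 0.0271, SE 0.95, and 1.80 with the beadchip block, not called), the former call lost in each of the 6 fits that left out 1 array (changes of 2.35 to 3.77) and the latter in all but that without PH 6 h replicate 1 (changes of 2.98 to 3.43). Beside this 3.17 at PH 3 h, the highest changes in the list were 3.24 at PH 1 h and 2.63 at PH 6 h. After TCP the highest were 2.58 at 1 h, 1.41 at 3 h and 0.47 at 6 h. None of these other changes was called, so the list does not show whether large changes were particular to PH or to 3 h. Mknk2, which encodes a kinase of eIF4E, was higher after PH than after TCP at 6 h by 1.53 (limma adjusted p = 0.00429, SE 0.32, and 0.93 with the beadchip block, not called).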

How the data were processed

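Liver mRNA of 21 mice was hybridised to Illumina mouse beadchips, 1 array per mouse. The deposited table holds, per probe and array, a signal intensity that the authors exported without normalisation and a detection p-value. The authors also deposited a value table of quantile-normalised log2 signals (median 7.941 on each array), used as an alternative. The beadchip is MouseRef-8 in the labels but WG-6 in the methods, and the number of probes is that of WG-6. BeadStudio and BRB-ArrayTools were used upstream, per the methods.

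Signals were background corrected and quantile normalised (neqc of limma 3.58.1, R 4.3.3, offset 16). A probe was tested if it had 1 annotated symbol and was detected (p under 0.05) on 3 or more arrays, which 17970 were, and each of 11442 genes was read from its brightest probe. Of all probes, 34885 had 1 symbol, 18 several and 10378 none, in the platform annotation. One limma model with 7 groups gave 11 comparisons. P-values are Benjamini-Hochberg adjusted over all genes. As 1 array per mouse was run, they rest on the spread between mice, and 3 arrays per group limit the precision. That spread also holds differences between beadchips for the controls (3 chips) and for PH 3 h, TCP 1 h and TCP 3 h (2 chips each). The pipeline was tested on simulated data. The members, gene lists and genes named (each member called against control or between PH and TCP, 6 factors described whether called or not, and up to 2 list genes each way) were chosen with earlier results of these data known. Alternatives changed background correction, scaling, filter, probe choice, beadchip and replicate block, and left out each array. Same-numbered arrays of different groups deviated from their group means with a mean correlation of 0.011 (63 pairs, lowest -0.24). Yet 13 of 21 arrays were closest to an array of their own number, so whether the numbers pair the mice was not settled. The main model used no pairing.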

Additional observations from a re-analysis of the deposited data

Results flagged for a closer look

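For 3 of 42 members (7.14%, against 10.3% of all genes) the changes after PH and after TCP differed at 6 h by a test of the difference itself. Eif1a was higher after PH by 1.46 on the log2 scale (limma adjusted p = 5.65e-05, 3 of 3 PH arrays above all 3 TCP arrays), Eif6 was higher by 0.60 (limma adjusted p = 0.026, 3 of 3) and Eif5b differed by -0.84 (limma adjusted p = 0.0304, 3 of 3 below). Each TCP 6 h array lay on chip 1 and each PH 6 h array on chip 4, so the beadchip and the treatment can be separated only through the controls and other groups, and with the block 0 of these 3 differences was called. Of all 11442 genes 26 were called with the block and 1181 without it.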

How the results depend on the processing

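The counts of called members at PH 1 h, TCP 1 h and PH against TCP at 1 h were 0 under all alternatives. No call of a member changed sign under any alternative in the comparison in which it was made. With median scaling the counts were 2 at PH 3 h (831 of all genes), 8 at PH 6 h (2500), 0 at TCP 3 h (113) and 1 at TCP 6 h (418). They were 0 from PH 1 to 3 h (83) and 1 from PH 3 to 6 h (145). The filter of the methods left 648 genes and 2 members, Eif1a and Eif2b3, so fewer could be called, and gave 2 at PH 3 h, 2 at PH 6 h, 2 at TCP 6 h, 1 for PH against TCP at 6 h, 1 from PH 1 to 3 h and 1 from PH 3 to 6 h. Without background correction 7 were called at PH 6 h (1534 of all genes) and 1 between PH and TCP at 6 h (833). On the authors' normalised values 8 (922) and 1 (521) were called. Testing each detected probe on its own gave 2 at TCP 3 h (164 of 17970 probes) and 5 between PH and TCP at 6 h (1567). The mean of the probes gave 1 from PH 1 to 3 h (158 of 11442 genes). With the beadchip as a block the counts were 2 at PH 3 h (535 of all genes) and 9 at PH 6 h (8 higher and 1 lower, Eif2b2 added, with 1122 of all genes). They were 0 at TCP 3 h (5 of all genes), TCP 6 h (43), PH against TCP at 6 h (26), PH 1 to 3 h (8) and PH 3 to 6 h (8). Within a beadchip they were 0 at PH 3 h (chips 3 and 4), PH 6 h (chip 4), TCP 3 h and TCP 6 h (chip 1), PH 1 to 3 h (chip 3) and PH 3 to 6 h (chip 4), where only 1 control or array stands on 1 side. Other causes of these shifts were not tested.

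Leaving out 1 array in turn gave 1 to 4 calls at PH 3 h, 8 to 15 at PH 6 h, 0 to 1 at TCP 3 h, 0 to 4 at TCP 6 h, 0 to 2 between PH and TCP at 3 h, 1 to 3 at 6 h, 0 to 5 from PH 1 to 3 h and 1 to 7 from PH 3 to 6 h. The count at PH 6 h was 8 without control replicate 2, control replicate 3 or PH 6 h replicate 3. With the replicate number as a block, the counts were 4 at PH 3 h, 12 at PH 6 h, 4 at TCP 6 h and 3 from PH 3 to 6 h, with 13 of 21 arrays closest to an array of their own number. A moderated test with a mean-variance trend and robust prior, chosen after seeing the data, moved no count by more than 1.5 times. Dim members, such as Eif4e, Eif5b and Eif2ak3, lie close to the background, where fold changes depend on the offset: with an offset of 50 Eif5b changed by -0.49 at PH 6 h.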
